A study of Mus musculus with 3 samples.

Results

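Superficial squamous cells are the outermost cells of the mouse corneal epithelium, the layer that faces the tear film. The cells described here were those that the authors' deposited annotation labelled Squam, and they numbered 5240 of 38111 cells in all. Single-cell RNA sequencing had been done on unchallenged corneas of the inbred strain C57BL/6J, and the labels name no treatment or mutation. The epithelium was lifted with an enzyme, dissociated with trypsin and counted with a droplet kit that reads the end of each transcript and its unique molecular identifier (UMI). Each of the 3 libraries pooled several animals. Library 1 held 4 corneas of 2 male mice aged 20 weeks, library 2 held 4 from 2 females of 11 weeks, and library 3 held 7 from 7 males of 10 weeks. Superficial cells were set against the other 6 epithelial classes of the annotation (wing, conjunctival, basal, limbal, TAC1 and TAC2), with the UMIs of each class and library summed, so that 3 sums stood for each class.

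The corneal epithelium is a stratified, non-keratinised epithelium that is renewed from its basal layer. Daughter cells move up through the wing layer and end as flat superficial cells, which are joined by tight junctions, carry a mucin-rich glycocalyx on folded apical membranes and are shed into the tear film. Unlike the outermost cells of skin, they keep their nucleus and do not form a dead cornified layer.

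Superficial cells were 12.95% of the cells of library 1 (exact Clopper-Pearson 95% interval 12.3 to 13.6), 11.5% (10.9 to 12.1) of library 2 and 15.6% (15.1 to 16.2) of library 3, with 1229, 1297 and 2714 cells. The intervals cover counting error only, and library 3 lay above both others. The mice of a library differed from those of the others in age, sex or number, so libraries were not tested against each other. Superficial cells held a median of 21899, 18851 and 9334 UMIs and 2999, 2780 and 1884 genes, against 19346.5, 16290.0 and 10704.5 UMIs and 3663, 3267 and 2579.5 genes in wing cells. Mitochondrial transcripts took a median of 1.04, 0.942 and 1.13% of a superficial cell's UMIs, against 1.52, 1.48 and 1.63% in wing cells. Of the cell barcodes, 32, 57 and 53 were found in both libraries of a pair, and at most 2 of them within the superficial class. Genes of other cell types ranged from near 0 to levels shared with neighbouring epithelium, and their part in the results below was not tested. The 7 measured immune markers summed to 0.554, 0.499 and 0.227 CPM (counts scaled to the same total in every sum) in superficial cells, against 23616 to 32193 CPM in immune cells. The 5 measured goblet cell markers summed to 30.9, 20.7 and 15.4 CPM in superficial cells and 53.5, 51.1 and 40.3 CPM in conjunctival cells. The 5 conjunctival markers, keratins among them, summed to 5688, 6336 and 5422 CPM in superficial cells, 13929, 14835 and 12221 in conjunctival cells and 2560.1, 2463 and 2233 in wing cells. The 3 measured meibomian and sebaceous markers summed to 2.66, 3.34 and 2.50 CPM in superficial cells and 5.96, 5.44 and 6.55 in basal cells. Of the other marker lists, 3 of 8 keratocyte, 3 of 5 melanocyte, 1 of 4 vascular, 3 of 4 nerve and 2 of 4 blood markers were measured. Each of these lists summed to under 1 CPM in superficial cells.

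On the TMM scale defined next, all 5 marker genes of the class were highest in superficial cells in each library; as a share of UMIs, Ly6g6c was lower than in wing cells in library 1. Levels beside a fold change are scaled CPM, the CPM after the trimmed mean of M-values (TMM) factor has put the typical gene at the same level in every sum. Psca, a small membrane-anchored protein of the Ly6 family, had 65303, 70607 and 66999 scaled CPM in superficial cells of libraries 1, 2 and 3, against 3385, 3116 and 2810.4 in wing cells. It was therefore far above the next layer in every library, and basal cells had only 65.6, 103 and 47.9. Muc4, a membrane mucin of the glycocalyx, had 5235, 4411 and 4194 scaled CPM in superficial cells and 1369.9, 1071 and 1199 in conjunctival cells, the next class. Krt78, a keratin of differentiated epithelium, had 446, 509.5 and 481 scaled CPM in superficial cells and 62.7, 55.6 and 71.2 in conjunctival cells, again the next class. The ranges did not overlap for either gene. Ly6g6c, another Ly6 protein, stood out least from the wing layer, with 1748, 2433 and 2305 scaled CPM in superficial cells and 899, 932 and 1058 in wing cells. Cnfn, which encodes the cornified envelope protein cornifelin, varied most between libraries, with 167, 449 and 125 scaled CPM in superficial cells and 0.189, 15.6 and 6.30 in conjunctival cells.

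**Figure D1:**
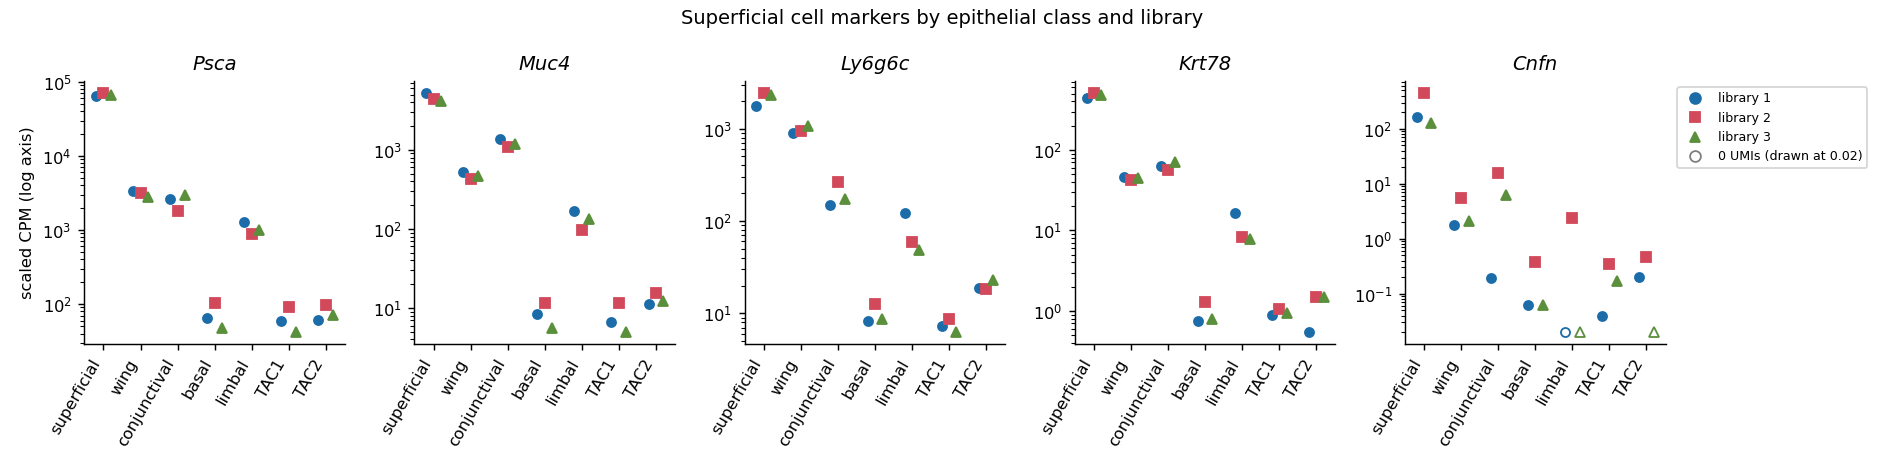
Level of the 5 superficial markers in each epithelial class. The y axes are scaled CPM on log axes, and each symbol is the sum of 1 class in 1 library; open symbols are sums with 0 UMIs. In each of the 5 panels the superficial sums lie above those of the other 6 classes of the same library, and Psca reaches 67636 scaled CPM on average against 3104 in wing cells.

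For shares of cells with a UMI, every cell was cut down to 2000 randomly drawn UMIs; 609 shallower cells, 28 of them superficial, were set aside. Psca was then detected in 100, 99.9 and 100% of the superficial cells of libraries 1, 2 and 3, and Muc4 in 97.6, 96.99 and 95.9%. Ly6g6c was found in 67.6, 76.3 and 72.3% of superficial cells and Krt78 in 33.1, 34.9 and 33.9%. Cnfn was found in 9.97, 16.8 and 4.86% of them, so most superficial cells had no Cnfn UMI at this depth in any library. Without thinning the mean shares in superficial cells were 100% for Psca, 99.9% for Muc4, 94.03% for Ly6g6c, 79.2% for Krt78 and 26.9% for Cnfn. Basal cells, which should lack these genes, gave the background at 2000 UMIs: 2.19% for Muc4, 2.37% for Ly6g6c, 0.259% for Krt78 and 0.0615% for Cnfn. For Psca the background was high, with 13.7, 21.1 and 11.3% of basal cells and 12.5, 51.4 and 20% of the few immune cells. A low level of Psca in another class is therefore not read as expression. Wing and conjunctival cells shared the markers more widely than basal cells. In wing cells the mean shares at 2000 UMIs were 39.8% for Muc4, 53.9% for Ly6g6c, 44.0% for Psca, 6.55% for Krt78 and 0.540% for Cnfn. In conjunctival cells they were 72.4, 18.7, 38.5, 7.90 and 0.526%.

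The RNA of superficial cells was concentrated in few genes. Their 10 most abundant genes took 32.01% ± 0.397 (SD, n = 3) of all UMIs, against 17.4% ± 0.394 for the 10 of wing cells and 21.6% ± 0.913 for the 10 of conjunctival cells. The 50 most abundant took 51.3% ± 0.553 in superficial cells, and between 30.7 and 38.8% in the other 6 classes. Between 42 and 47 genes covered 50% of the UMIs of a superficial sum, against 94 to 139 genes in the other epithelial classes. The superficial values lay above those of all other classes in each of the 3 libraries. An exact sign flip over 3 libraries cannot give a p under 0.25, so no test is given for this measure.

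The 10 genes were S100a6, a calcium-binding protein, with 5.13% of the UMIs of superficial cells, Gsto1, a glutathione transferase, with 4.99%, and Tmsb4x, the actin-binding thymosin, with 4.89%. They were followed by the nuclear non-coding RNA Malat1 (3.53%), Psca (3.32%), the skin-type aspartic protease Asprv1 (2.78%) and the ferritin heavy chain Fth1 (2.48%). The Ly6 protein Lypd2 (2.25%), the apical transport protein Mal (1.40%) and the cysteine protease inhibitor Cstdc5 (1.25%) completed them. In single cells at 2000 UMIs these 10 genes together took a median of 32.1, 31.4 and 32.6% of a superficial cell's UMIs in libraries 1, 2 and 3. In wing cells the medians were 9.05, 8.55 and 10.2%, and in basal cells 5.25, 5.35 and 5.60%. The classes met at their edges: the lowest 5% of superficial cells were at or under 22.5, 22.3 and 23.6%, and the highest 5% of wing cells at or over 23.1, 22.5 and 24.4%. Conjunctival cells overlapped more, with medians of 15.3, 13.7 and 16.6% and their highest 5% at or over 28.2, 27.5 and 28.2%.

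**Figure D2:**
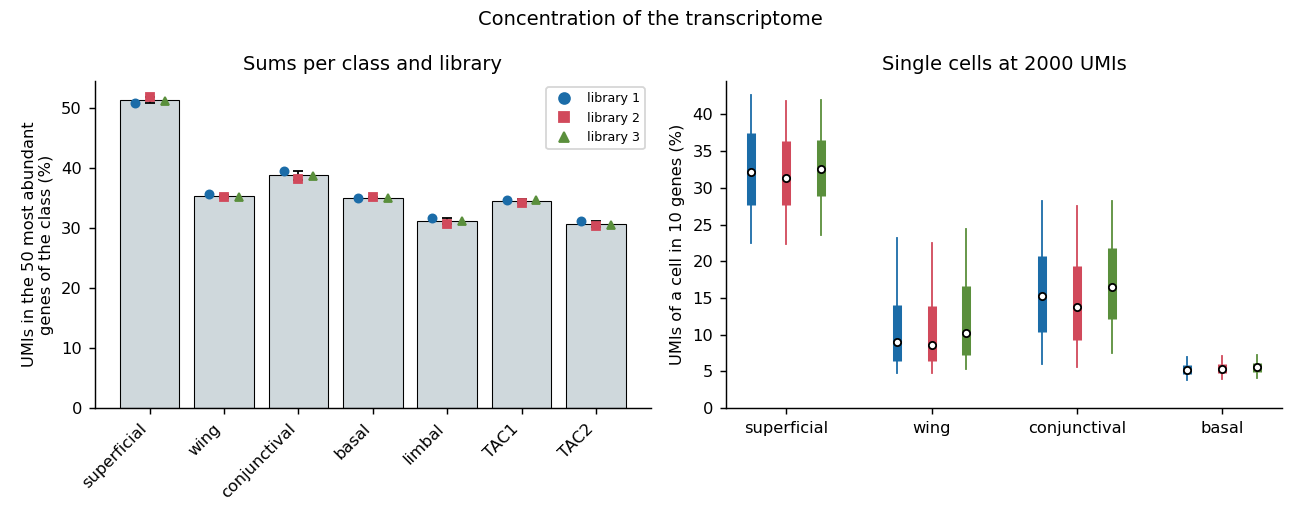
Left, the percentage of UMIs in the 50 most abundant genes of each class; bars are means with SD over 3 libraries and symbols are libraries. Right, the percentage of each cell's UMIs, at 2000 UMIs a cell, in the 10 genes most abundant in superficial cells; circles are medians, thick lines the middle 50% and thin lines the range without the outer 5% at each end. Superficial cells reach 51.3% on the left, and on the right their thin lines overlap those of wing cells at the ends and those of conjunctival cells further, up to the thick line in library 1.

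This concentration sets the scale on which fold changes are read. TMM factors were 0.474 to 0.502 for superficial sums, and from 0.872 for conjunctival to 1.29 for limbal sums. On each sum's own total, the median log2 fold change was therefore lower by 1.19 against the mean of the other classes, by 1.03 against wing cells and by 0.85 against conjunctival cells. Folds below are on the TMM scale, and a gene called higher with a log2 fold under these amounts was not higher as a share of the cells' UMIs. Whether a superficial cell holds less RNA in all cannot be told apart from a shift of most genes in these data.

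Of 13472 genes tested against the mean of the other epithelial classes with edgeR's quasi-likelihood test, 5597 (41.5%) were higher in superficial cells and 5809 (43.1%) lower, at an adjusted p under 0.05. On library totals the split was 2440 higher (18.1%) and 9893 lower (73.4%). With 84.7% of all genes past the threshold, a pass by itself says little about a gene, and sizes are given. The median log2 fold of all tested genes was -0.10. The log2 fold takes the mean of the log levels of the 6 classes, so classes with little of a gene count as much as those with much. Levels printed for the mean of the other classes are plain means of scaled CPM, which a class with much of a gene can dominate. The log2 fold therefore cannot be read off them. The sources used here do not say how the authors labelled the cells. Where the labels rest on these counts, the p-values describe how alike the class differences are over the 3 libraries.

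Among genes at a mean log2 CPM of 5 or more over the 21 sums, which leaves out several with larger folds such as Lce3a, those furthest above the other classes included a pair of serine proteases, Ly6 proteins, a membrane mucin and a growth factor. The serine protease Prss27 had 3279, 3285 and 3151 scaled CPM in superficial cells and 83.5, 94.3 and 80.99 in the mean of the other classes, a log2 fold of 7.45 ± 0.09 (SE, edgeR adjusted p = 1.1e-18). Its relative Prss22 had 4037, 2318 and 3069 scaled CPM in superficial cells and 34.2, 21.8 and 31.5 in the mean of the others, a log2 fold of 7.35 ± 0.04 (SE, edgeR adjusted p = 1.4e-40). Both genes were far apart between the groups in every library. Psca had a log2 fold of 7.49 ± 0.18 (SE, edgeR adjusted p = 5.5e-14), and Ifit1bl1, a relative of the interferon-induced Ifit genes, one of 7.46 ± 0.15 (SE, edgeR adjusted p = 7.9e-15). Ly6a, known as the stem cell antigen Sca-1, had 6205, 5867 and 6781 scaled CPM in superficial cells, 738, 1018 and 831 in conjunctival cells and 47.3, 63.2 and 35.7 in wing cells. Every superficial value of Ly6a was several times the conjunctival value of its library, and its log2 fold against the mean of the other classes was 6.94 ± 0.19 (SE, edgeR adjusted p = 3.0e-13). Hbegf, a ligand of the epidermal growth factor receptor, had 2629, 2086 and 1338 scaled CPM in superficial cells and 58.9, 55.7 and 41.2 in the mean of the others. The remaining genes named by size were Cysrt1 (7.02), Asprv1 (6.85), Mab21l4 (6.32), Nccrp1 (6.20), Muc4 (6.18) and the keratin Krt80 (5.96), as log2 folds.

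Under the same limit, the genes furthest below the other classes included the basal keratin Krt14 and genes of signalling and metabolism. The 12 named by size had log2 folds of -3.43 to -2.71. Tmem176b, an ion channel-like membrane protein, had 5.79, 8.25 and 2.93 scaled CPM in superficial cells and 101, 128 and 68.5 in the mean of the others, a log2 fold of -3.43 ± 0.15 (SE, edgeR adjusted p = 1.4e-12). Krt14 had 52.7, 107 and 33.1 scaled CPM in superficial cells and 652, 1493 and 615 in the others, a log2 fold of -3.02 ± 0.52 (SE, edgeR adjusted p = 1.2e-04). Sfrp1, a secreted Wnt inhibitor, had a log2 fold of -2.76, and Mir205hg, the host transcript of an epithelial microRNA, one of -2.76. The ferritin subunits went opposite ways: Fth1, the heavy chain, had 46986, 50597 and 53882 scaled CPM in superficial cells and 2603, 2774 and 2741 in the others, while Ftl1, a light chain, had 30.6, 35.7 and 23.7 against 342, 338 and 375. Ftl1 shares reads with near-identical copies, so its level is uncertain. Golim4, Tmem176a, Lgals7, Apoe, C1qbp, Cdca7 and Nfix completed the 12.

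Lists of genes with a known role were then followed. They were chosen with earlier results of these data known, so their counts are a description. Some hold markers of the class, such as Psca. Each count stands beside the backgrounds of 41.5% higher and 43.1% lower, and each count on library totals beside 18.1% higher and 73.4% lower. Of 11 measured genes of membrane mucins and the glycocalyx, 9 were higher and 2 lower, with a median log2 fold of 2.06, and 8 were higher on library totals too. Muc20, a membrane mucin, had 774, 709 and 771 scaled CPM in superficial cells and 77.5, 70.1 and 69.4 in wing cells. Its superficial values lay far above every wing value, with a log2 fold against the mean of the others of 6.26 ± 0.10 (SE, edgeR adjusted p = 1.6e-16). Lgals3, the galectin that binds mucins at the corneal surface, had 9088, 9969 and 9458 scaled CPM in superficial cells and 1702, 1797 and 1611 in the mean of the others, a log2 fold of 2.97 ± 0.04 (SE, edgeR adjusted p = 6.5e-32). Muc13 was low, with 3.24, 3.32 and 6.05 scaled CPM in superficial cells and 0 UMIs in basal cells. The lower members were the hyaluronan receptor Cd44 and the heparan sulfate proteoglycan Sdc1, which lie in deeper layers of stratified epithelia. Of 16 enzymes of mucin-type O-glycosylation, 12 were higher and 2 lower (median 0.73), and on library totals 6 were higher and 8 lower. Galnt3, which starts O-glycan chains, had a log2 fold of 4.48 ± 0.08 (SE, edgeR adjusted p = 5.2e-18). St6galnac1, which adds sialic acid to them, had 3.21 ± 0.08 (SE, edgeR adjusted p = 2.5e-14). St3gal1, another sialyltransferase, had 29.2, 26.2 and 27.3 scaled CPM in superficial cells and 0.0812, 0.124 and 0.0915 in wing cells.

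Tight junction genes were high. Of 19 tested, 16 were higher and 1 lower (median 2.49), and all 16 were higher on library totals too. Cldn23, a claudin, had 1090.2, 905 and 1109.6 scaled CPM in superficial cells, 144, 118 and 154 in conjunctival cells and 1.84, 1.67 and 1.11 in basal cells, a log2 fold against the mean of the others of 6.82 ± 0.10 (SE, edgeR adjusted p = 1.1e-17). Pard6b, a polarity protein of the apical domain, had 315, 258 and 263 scaled CPM in superficial cells and 8.99, 7.88 and 7.87 in wing cells. The superficial values of both genes lay apart from those of every other class named here. Cldn7, the most abundant claudin of superficial cells, had 1624, 2246 and 1763 scaled CPM there and 839.9, 909.7 and 894 in wing cells. As a share of UMIs it was above wing cells in library 2 only. Tjp1, the scaffold protein ZO-1, had a log2 fold of 3.98 ± 0.04 (SE, edgeR adjusted p = 1.2e-34). The lower member was the claudin Cldn8. Tjp1 also stood in the corneal endothelium marker list, whose 3 measured genes summed to 441, 405 and 419 CPM in superficial cells, most of it Tjp1. Of 28 genes of the apical membrane cytoskeleton, 23 were higher and 5 lower (median 2.14; 19 higher on library totals), and the list took 6.96% ± 0.380 of the UMIs of superficial cells, against 4.34% ± 0.308 of wing cells (SD, n = 3). Mal, which carries proteins to the apical membrane, had 26096, 35021 and 24934 scaled CPM in superficial cells and 6994, 7812 and 6095 in wing cells. Plekhs1, named for its pleckstrin homology domain, had 621, 549 and 457 scaled CPM in superficial cells and 2.51, 2.49 and 1.30 in wing cells. Msn, which encodes the membrane linker moesin, had 0 UMIs in the superficial sums and is known for its use in other cell types.

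Desmosome genes were mostly higher on the TMM scale, but not as a share of UMIs. Of 15 tested, 10 were higher and 2 lower than the mean of the others (median 0.87), and 5 were higher on library totals. As a share of UMIs the list took 0.360% ± 0.0241 in superficial cells and 0.785% ± 0.00911 in wing cells. Among the higher members were the plakins of the desmosomal plaque and cell periphery. Ppl, periplakin, had 2296, 2719 and 1849 scaled CPM in superficial cells and 800.2, 842 and 722 in wing cells. Evpl, envoplakin, had 1079, 1232 and 1034 against 732, 756 and 640.5. As a share of UMIs Ppl was higher and Evpl lower than in wing cells in each library. Their log2 folds against the mean of the others were 3.08 ± 0.04 (SE, edgeR adjusted p = 1.8e-29) and 2.46 ± 0.04 (SE, edgeR adjusted p = 2.4e-29). Cdsn, corneodesmosin of skin, was low but varied, with 8.14, 37.3 and 16.8 scaled CPM in superficial cells and 0.940, 2.25 and 1.55 in wing cells.

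Genes of the cornified envelope, the protein shell of dead skin cells, were high in these cells, which form no such layer. Of 19 tested, 17 were higher and 2 lower (median 4.15), and 16 were higher on library totals. The list took 3.71, 3.80 and 3.14% of the UMIs of superficial cells in libraries 1, 2 and 3, against 1.05, 1.01 and 1.06% of wing cells. Most of that share was Asprv1, with 55666, 62802 and 51394 scaled CPM in superficial cells and 3856, 3525 and 4034 in wing cells. Calml3, a calmodulin-like protein, had 7299, 7877 and 7366 scaled CPM in superficial cells and 5837, 5959 and 5906 in wing cells. It was therefore already high below the surface, and as a share of UMIs it was lower than in wing cells in each library. Lce3a and Lce3f, small late envelope proteins, were close to confined to the class. Lce3a had 7929, 5359 and 1686 scaled CPM in superficial cells and 52.4, 12.96 and 1.75 in wing cells, a log2 fold against the mean of the others of 10.12 ± 0.28 (SE, edgeR adjusted p = 2.9e-13), and Lce3f had 302, 283 and 71.7 against 6.82, 1.08 and 0.0407. Both were lowest in library 3 and the groups did not overlap in any library. The lower members were the early envelope gene Ivl (involucrin) and Krtdap. Ivl is named here after its values were seen, and had 0.965, 1.05 and 1.17 scaled CPM in superficial cells and 5.27, 4.90 and 5.002 in the mean of the others.

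Keratins of mucosal and superficial epithelia were high. Of 13 tested, 11 were higher and 1 lower (median 3.96; 10 higher on library totals), the lower one being Krt18 of simple epithelia. Krt6b had 13791, 14355 and 13150.4 scaled CPM in superficial cells and 5692, 5513 and 5246 in conjunctival cells. Krt13 had 9423, 10445 and 9116 scaled CPM in superficial cells and 7415, 7891 and 6789 in conjunctival cells, and Krt23 had 432, 353 and 259.96 against 17.04, 13.8 and 7.998. Krt6b and Krt23 were thus apart from the conjunctival values, while Krt13 was above them by a smaller step in each library on the TMM scale and below them on library totals. Krt12, the keratin of the corneal lineage, was lower than in wing cells, with 19596, 24381 and 17791 scaled CPM in superficial cells and 29194, 27344 and 29064 in wing cells, a log2 fold of -0.47 ± 0.11 (SE, edgeR adjusted p = 0.0019). Against the mean of the others Krt12 had a log2 fold of 0.92, which was -0.28 on library totals and -0.055 in a fit of only superficial cells and the pooled rest. Krt5, a keratin of the lower layers, did not pass the test against the mean of the others, with a log2 fold of -0.03 ± 0.04 (SE, edgeR adjusted p = 0.54). Without library 3 it was -0.12 and past the threshold. Of the 4 corneal and basal keratins 2 were higher, 1 of them also on library totals, and 1 lower. Krt15, a limbal and conjunctival keratin, had 7032, 8386 and 5164 scaled CPM in superficial cells and 5879, 5909 and 4552 in wing cells. Conjunctival cells had 29979.9, 30657 and 25011. As a share of UMIs Krt15 was lower in superficial than in wing cells in each library.

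The Ly6/uPAR family, small proteins tied to the outer membrane or secreted, took 7.14% ± 0.553 of the UMIs of superficial cells, against 2.84% ± 0.125 of wing cells, 0.819% ± 0.158 of conjunctival cells and 1.36% ± 0.0693 of basal cells (SD, n = 3). Of 19 tested, 14 were higher and 5 lower (median 2.74), and 12 were higher on library totals. Psca and Lypd2 made up most of the share. Lypd2 had 39530.2, 44156 and 53289 scaled CPM in superficial cells and 12659.8, 13535 and 14599 in wing cells, so it was already abundant below the surface. It had 2984, 1999.7 and 4425 scaled CPM in conjunctival cells, less than in basal cells, which had 4546, 4852 and 5467. Psca and Lypd2 lie close together on chromosome 15, at chr15:74714839-74717069 and chr15:74732247-74734329 in GRCm38.

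**Figure D3:**
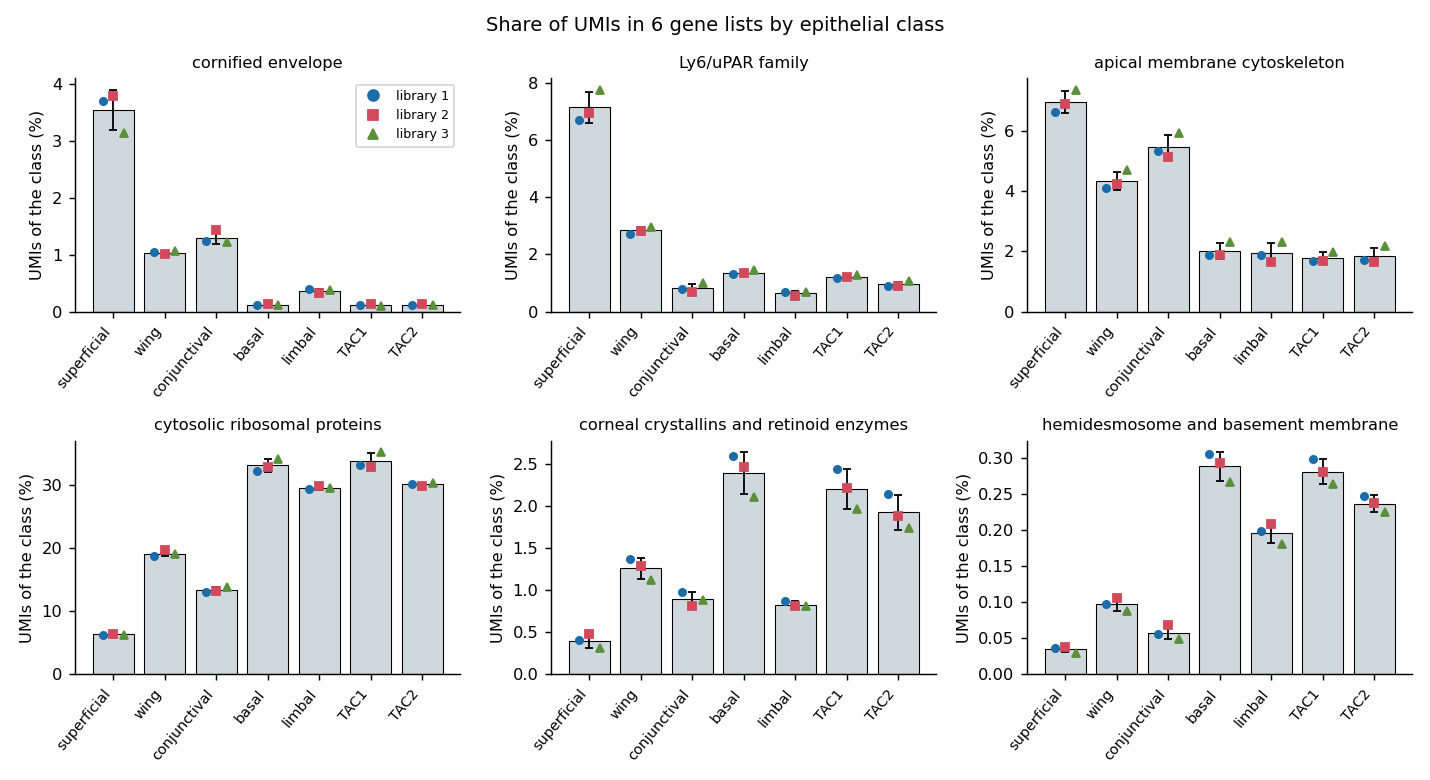
Percentage of the UMIs of each class in 6 gene lists; bars are means with SD over 3 libraries and symbols are libraries. Superficial cells are highest for the cornified envelope, Ly6/uPAR and apical cytoskeleton lists, and lowest for ribosomal proteins (6.32% ± 0.118), crystallins and retinoid enzymes, and hemidesmosome genes.

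Proteases and their inhibitors, which govern shedding in stratified epithelia, were mostly higher: 25 of 32, with 4 lower, a median of 2.58 and 22 higher on library totals. Csta1, a stefin that inhibits cysteine cathepsins, had 4069, 3792 and 4488 scaled CPM in superficial cells and 362, 388 and 410.4 in wing cells. Csta1 and Cstdc5 belong to a cluster of similar genes, so their reads may be split. Of 18 antimicrobial genes, 14 were higher and 3 lower (median 5.86, or 5.66 with classes of 0 UMIs set to 3 counts). All 14 were also higher on library totals. Pglyrp1, which binds bacterial peptidoglycan, had 7329, 11187 and 7847 scaled CPM in superficial cells and 5136, 6301 and 4642 in conjunctival cells. As a share of UMIs it was lower than in conjunctival cells in each library. S100a7a, a psoriasin-type protein, had 1085, 956 and 428 scaled CPM in superficial cells and 9.11, 5.96 and 4.42 in wing cells. Nccrp1 had 5343, 5608 and 4906 scaled CPM in superficial cells and 1135, 1084 and 1067 in conjunctival cells. The beta-defensin Defb14 was low, with 33.3, 13.99 and 6.83 scaled CPM in superficial cells and 0.0812, 0.0138 and 0 in wing cells.

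Cytokines, alarmins and immune ligands were higher in 19 of 27 cases and lower in 6 (median 3.74), with 18 higher on library totals. Their share of UMIs was small, 0.187% ± 0.0365 in superficial cells and 0.0479% ± 0.00300 in wing cells. Cd274, the immune checkpoint ligand PD-L1, had 428, 289.8 and 292 scaled CPM in superficial cells and 4.17, 2.32 and 4.80 in conjunctival cells. The inflammatory cytokine Il18 had 529.5, 653 and 673 scaled CPM in superficial cells and 215, 211 and 275 in wing cells, a log2 fold against the mean of the others of 3.74 ± 0.07 (SE, edgeR adjusted p = 1.9e-17). Tnf had 150.3, 81.03 and 43.7 scaled CPM in superficial cells and 0.418, 0.194 and 0.0509 in wing cells. The neutrophil chemokine Cxcl2 had 16.1, 17.4 and 74.5 scaled CPM in superficial cells and 0, 0.155 and 23.6 in conjunctival cells, so libraries 1 and 2 were apart and library 3 was high in both classes. The immune cell markers given above were under 1 CPM in superficial cells, and whether immune cells had a part in the cytokine levels was not tested. The 6 lower members were the alarmins Il33 and Tslp, the chemokines Ccl27a and Cxcl14, the growth factor Epgn and the costimulator Cd80, and are named after their values were seen.

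Immediate early genes, which respond within minutes to handling as well as to signals, were also mostly higher. Of 19 tested, 15 were higher and 2 lower (median 1.54), and 10 were higher on library totals. They took 0.482, 0.327 and 0.364% of the UMIs of superficial cells in libraries 1, 2 and 3 and 0.237, 0.219 and 0.250% of wing cells. Ier3 had 2323, 1484 and 1182 scaled CPM in superficial cells and 101, 94.2 and 80.7 in wing cells, and Dusp5, a phosphatase of the ERK pathway, had 936, 757 and 617 against 16.6, 12.6 and 12.01. Jund, an AP-1 subunit, had a log2 fold of 2.48 ± 0.04 (SE, edgeR adjusted p = 3.5e-30). Whether the dissociation had a part in the levels of these genes, of Hbegf, Tnf and the other cytokines was not tested.

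Factors of epithelial differentiation were split, with 19 of 35 higher and 14 lower (median 1.21), and 16 higher on library totals. Hopx, a homeodomain-only protein, had 8748, 7863 and 9040.1 scaled CPM in superficial cells and 3929, 2967 and 3451 in conjunctival cells. Elf3, an epithelial Ets factor, had 2512, 2387 and 2360.5 scaled CPM in superficial cells and 731, 723 and 675 in conjunctival cells. Prdm1, the repressor Blimp-1 known from terminal differentiation, had 269, 211 and 288 scaled CPM in superficial cells and 11.8, 9.64 and 13.3 in wing cells, a log2 fold against the mean of the others of 6.98 ± 0.06 (SE, edgeR adjusted p = 2.7e-35). All 3 were apart from the classes named beside them in each library. Of 13 progenitor and corneal factors, 4 were higher and 7 lower (median -0.63; 1 higher on library totals). Pax6, the master factor of the eye, had 368, 371 and 353 scaled CPM in superficial cells and 385, 373 and 357 in the mean of the others, a log2 fold of -0.02 ± 0.04 (SE, edgeR adjusted p = 0.59). On library totals Pax6 had a log2 fold of -1.22, and without library 3 it had -0.12 on the TMM scale, past the threshold. Id1 had a log2 fold of 2.23, and Sox6 and Sox9 had -2.72 and -2.69. Trp63, the p63 factor of the basal layer, had 25.4, 21.2 and 25.1 scaled CPM in superficial cells and 86.7, 90.9 and 95.6 in wing cells, a log2 fold against the mean of the others of -2.24 ± 0.06 (SE, edgeR adjusted p = 1.2e-24).

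Of 29 genes of cell death and nuclear removal, 18 were higher and 7 lower (median 1.16; 13 higher on library totals). The list held genes that work in opposite directions. Mcl1, which protects against apoptosis, had 822, 743 and 749 scaled CPM in superficial cells and 145, 141 and 144 in wing cells. Trex2, a DNA-degrading exonuclease of keratinocytes, had 629, 712 and 639 scaled CPM in superficial cells and 65.2, 66.7 and 60.9 in wing cells, a log2 fold against the mean of the others of 6.53 ± 0.06 (SE, edgeR adjusted p = 1.1e-27). Pmaip1, which promotes apoptosis, had at most 3.19 scaled CPM in superficial cells and 0 UMIs in wing cells. Of 25 genes of lysosomes and autophagy, 19 were higher and 5 lower (median 1.07), and on library totals 10 were higher and 13 lower. The autophagosome proteins Map1lc3b, Map1lc3a and Wipi1 had log2 folds of 3.14, 3.76 and 4.10. The lysosomal protease Ctsl had 1.07, which was -0.12 on library totals.

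**Figure D4:**
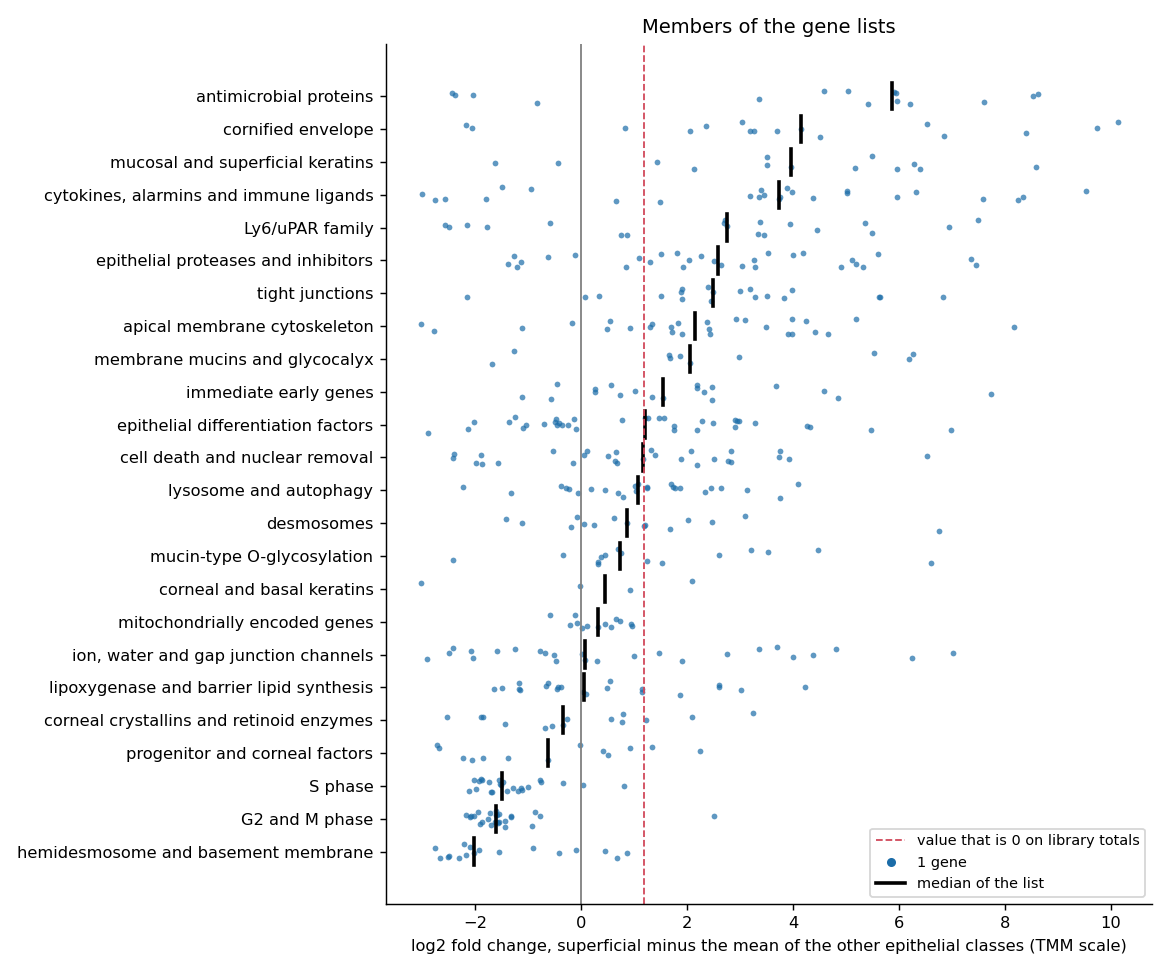
Log2 fold change of list members, superficial minus the mean of the other epithelial classes on the TMM scale; each point is 1 gene, black bars are medians of all tested members, and 19 genes with 0 UMIs in a class are counted in the medians but not drawn. The dashed line marks the value that is 0 on library totals. Antimicrobial genes have the highest median, 5.86, and hemidesmosome genes the lowest, -2.02.

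The genes of deeper layers were low. Of 17 hemidesmosome and basement membrane genes, 3 were higher and 13 lower (median -2.02). On library totals all 17 were lower. Dst, which ties keratins to hemidesmosomes, had 37.2, 33.7 and 25.5 scaled CPM in superficial cells and 309, 354 and 278 in basal cells. Lamc1, a laminin chain, had a log2 fold of -2.76 ± 0.23 (SE, edgeR adjusted p = 9.0e-12) and Plec, plectin, one of -0.41. Itga6, an integrin of hemidesmosomes, was among the exceptions on the TMM scale, with 219, 262 and 196 scaled CPM in superficial cells and 189, 199.96 and 179 in basal cells. Its log2 fold was 0.68 on that scale and -0.51 on library totals. Corneal crystallins and retinoid enzymes were higher in 6 of 15 cases and lower in 9 (median -0.34; 2 higher on library totals), and took 0.394% ± 0.0836 of the UMIs of superficial cells against 2.39% ± 0.249 of basal cells. Tkt, a transketolase that serves as a corneal crystallin, had 886, 944 and 713 scaled CPM in superficial cells and 7150.1, 7477 and 6052 in basal cells. Aldh3a1, the main corneal crystallin of the mouse, had 5895, 7257 and 4091 scaled CPM in superficial cells and 13809.5, 13067 and 11383 in basal cells. Its relative Aldh3b2 was higher in superficial cells, with a log2 fold of 3.24 ± 0.07 (SE, edgeR adjusted p = 2.1e-17).

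Ribosomal protein genes took 6.25, 6.45 and 6.25% of the UMIs of superficial cells in libraries 1, 2 and 3. They took 19.2% ± 0.467 in wing cells, 13.4% ± 0.414 in conjunctival cells and 33.2% ± 0.967 in basal cells (SD, n = 3). Of 82 tested, 1 was higher and 78 lower (median -0.86), and on library totals 81 were lower. The difference was uneven: Rps19 had a log2 fold of -1.82 ± 0.05 (SE, edgeR adjusted p = 1.7e-23) and Rpl12 one of -1.70, while Rplp0 had 4892, 6308 and 4477 scaled CPM in superficial cells and 4959, 5803 and 4439 in the mean of the others. Ribosomal protein genes have many near-identical copies, and their reads can be split between them. The 13 mitochondrially encoded genes took 1.09% ± 0.109 of UMIs in superficial cells and 1.58% ± 0.101 in wing cells. On the TMM scale 8 of them were higher and 3 lower, and on library totals all 13 were lower. Cell cycle genes were low against classes that include dividing cells, with 21 of 24 S phase and 25 of 26 G2 and M phase genes lower (medians -1.50 and -1.60). The 4 markers of dividing cells summed to 7.99, 10.3 and 4.64 CPM in superficial cells, against 1537, 1783 and 1716 CPM in TAC2 cells. They were similarly low in wing cells (8.80, 10.4 and 8.55 CPM) and in conjunctival cells (4.68, 13.6 and 6.45 CPM). The exception in the second list, Tubb4b, encodes a tubulin that cells also use outside division. It had 3134, 3309 and 3031 scaled CPM in superficial cells and 710.1, 728 and 682 in the mean of the others. Against wing cells, with 37.5% of all genes higher and 38.5% lower, 8 of 24 S phase genes were higher and 2 lower (median 0.40). Of 26 G2 and M phase genes, 13 were higher than in wing cells and 1 lower (median 0.81). On library totals against wing cells 1 of each list was higher, and 13 and 6 were lower.

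Lists of ion, water and gap junction channels and of barrier lipid synthesis had no common direction. Of 27 channels 13 were higher and 11 lower (median 0.07; 11 higher on library totals). Aqp5, the water channel of the corneal surface, had 20062, 26883 and 21116 scaled CPM in superficial cells and 10743, 11505 and 9368 in wing cells, and Slc5a1, a sodium and glucose transporter, had 799, 689 and 531 against 23.3, 24.4 and 21.8. Clic3, an intracellular chloride channel protein, had a log2 fold of 3.35 ± 0.05 (SE, edgeR adjusted p = 4.3e-21). Of 22 genes of lipoxygenases and barrier lipids, 10 were higher and 7 lower (median 0.06; 6 higher on library totals), and the list took 0.0600% ± 0.00535 of UMIs in superficial cells and 0.201% ± 0.0149 in wing cells. Alox12b, an enzyme that skin needs for its lipid barrier, had at most 2.67 scaled CPM in superficial cells and 0 UMIs in basal cells. The ceramide synthase Cers3 had 91.1, 91.5 and 96.005 scaled CPM in superficial cells and 18.9, 17.9 and 21.2 in wing cells. Scd2, a fatty acid desaturase, had a log2 fold of 0.54, which was -0.66 on library totals and -0.15 in a fit of only superficial cells and the pooled rest.

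Some genes were close to confined to superficial cells. As plain CPM of each sum's own total, 1419 of 17931 genes (7.91%) were highest in superficial cells in all 3 libraries, against 609 to 1705 genes for each of the other 6 classes. On the TMM scale 4066 genes were. Of the 811 named genes at 32 CPM or more, 318 had at least 2 times and 29 at least 10 times the mean CPM of the next class. These genes were picked for that ratio, so the values are a description. Il4i1, an amino acid oxidase that limits immune cells, had 129.7, 46.6 and 104 CPM in superficial cells of libraries 1, 2 and 3, against a mean of 0.491 CPM in conjunctival cells. Lce3b had 177, 70.1 and 22.5 CPM in superficial cells against 0.536 CPM in wing cells, and Crct1, a neighbour of the Lce3 genes, had 312, 434 and 161 CPM in superficial cells against 2.13 CPM in wing cells. Superficial cells were highest in every library for each of them, though Lce3b varied widely. Clca3b, of a family that regulates chloride channels, had 46.02, 59.98 and 27.9 CPM in superficial cells against 0.287 CPM in conjunctival cells. Asb11, a ubiquitin ligase subunit, had 85.9, 65.4 and 93.9 CPM in superficial cells against 2.54 CPM in conjunctival cells. The ratio to the next class was 189.8 for Il4i1 and 32.2 for Asb11, the first and last of the 10 genes ranked by it, which also included Tnf, Lce3a, S100a7a, Cd274 and Lce3f.

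Several of these genes lie together. The epidermal differentiation complex of chromosome 3 holds the S100, Lce3 and related genes, and Lce3a (chr3:92925287-92926230, minus strand) and Lce3b (chr3:92932979-92934097, plus strand) are adjacent in it in GRCm38. Between S100a1 and S100a10 (chr3:90511034-93564643) the table held 40 genes, of which 16 were highest in superficial cells in every library. Over all genes in the table that share was 7.91%. Of the 27 tested there, 25 were higher and 2 lower than the mean of the other classes (median log2 fold 3.35), beside 41.5% and 43.1% of all genes tested. The stretch took 7.82% ± 0.106 of the UMIs of superficial cells, 3.79% ± 0.0602 of wing cells, 6.29% ± 0.275 of conjunctival cells and 1.94% ± 0.00770 of basal cells. The stretch was chosen after the values were seen and is given as a description.

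Promoters of the class's genes were searched on both strands for 3 short motifs known from epithelial factors: AACNGGTT of grainyhead-like factors, TGANTCA of AP-1 and GGGTGTGG of Kruppel-like factors. RefSeq promoters (GRCm38.p6, 250 bases before and 50 after a start) were found for 37 of the 50 genes with the highest ratio to the next class. These genes had 46 promoters in the table, and TGANTCA was in 5 of them (10.9%), GGGTGTGG in 3 (6.52%) and AACNGGTT in 1 (2.17%). Of the promoters of all genes tested 5.50% held TGANTCA, 4.02% GGGTGTGG and 1.89% AACNGGTT. Of every promoter in the RefSeq set used, the shares were 7.81, 3.56 and 2.09%. The 858 promoters of the genes highest in superficial cells at 32 CPM or more held them at 7.34, 5.13 and 1.63%. The counts are small, and a match of letters is not a bound site. The 250 bases before the start of the marker Cnfn, of Clca3b and of Pard6b are shown as examples with a match, 5′ to 3′ along the gene, with the match in capitals. In Cnfn (GRCm38.p6, chr7:25369725-25369974, minus strand) and Pard6b (chr2:168080754-168081003, plus strand) the capitals mark GGGTGTGG, and in Clca3b (chr3:144849303-144849552, minus strand) they mark TGANTCA.
Cnfn: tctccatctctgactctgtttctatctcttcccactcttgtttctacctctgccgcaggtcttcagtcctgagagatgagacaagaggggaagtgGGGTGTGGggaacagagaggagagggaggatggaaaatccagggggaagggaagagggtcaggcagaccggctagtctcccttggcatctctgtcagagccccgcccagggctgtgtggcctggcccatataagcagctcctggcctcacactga
Clca3b: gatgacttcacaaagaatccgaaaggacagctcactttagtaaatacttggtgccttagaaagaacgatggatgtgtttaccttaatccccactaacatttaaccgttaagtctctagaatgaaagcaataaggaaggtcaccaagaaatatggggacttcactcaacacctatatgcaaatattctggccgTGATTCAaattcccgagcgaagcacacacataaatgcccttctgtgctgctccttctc
Pard6b: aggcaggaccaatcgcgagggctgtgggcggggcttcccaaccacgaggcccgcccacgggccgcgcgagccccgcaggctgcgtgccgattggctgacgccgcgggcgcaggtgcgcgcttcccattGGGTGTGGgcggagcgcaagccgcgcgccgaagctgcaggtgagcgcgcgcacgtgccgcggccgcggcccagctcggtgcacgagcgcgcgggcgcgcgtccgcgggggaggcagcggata

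Against wing cells, the layer just below, 5051 of 13472 genes (37.5%) were higher in superficial cells and 5186 (38.5%) lower, 76.0% in all, and on library totals 1907 (14.2%) and 9932 (73.7%). The median log2 fold of all genes was -0.07. Among genes at a mean log2 CPM of 5 or more over the sums of both classes, the largest steps up besides Lce3a and Crct1 were those of Plekhs1, with a log2 fold of 8.04 ± 0.18 (SE, edgeR adjusted p = 2.9e-15), and Chac1, a glutathione-degrading enzyme of the stress response. Chac1 had 767, 773 and 583 scaled CPM in superficial cells and 3.86, 4.91 and 3.88 in wing cells, a log2 fold of 7.39 ± 0.11 (SE, edgeR adjusted p = 6.0e-25). Alpl, an alkaline phosphatase, had 454, 326 and 225 scaled CPM in superficial cells and 3.70, 2.59 and 2.07 in wing cells. Krt7, a keratin of simple epithelia, had 903, 1535 and 781 scaled CPM in superficial cells and 7.85, 17.8 and 4.62 in wing cells, a log2 fold of 6.87 ± 0.24 (SE, edgeR adjusted p = 5.2e-12). These genes were close to absent from the wing layer and clearly present at the surface in every library.

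The largest steps down against wing cells, under the same limit, included adhesion and surface proteins. Cd44, the hyaluronan receptor, had 22.5, 25.1 and 31.1 scaled CPM in superficial cells and 166, 165 and 211 in wing cells, a log2 fold of -2.79 ± 0.13 (SE, edgeR adjusted p = 2.8e-12). Cd109, a membrane-anchored inhibitor of TGF-beta signalling, had a log2 fold of -2.82 ± 0.06 (SE, edgeR adjusted p = 5.3e-25). Nectin1, an adhesion molecule, had 18.2, 15.4 and 20.2 scaled CPM in superficial cells and 106, 100.1 and 109.6 in wing cells. Dapl1 had 367, 356 and 505 scaled CPM in superficial cells and 2220.3, 2251 and 2983 in wing cells, and the retinol-oxidising enzyme Adh7 had 131, 121 and 122 against 633, 643 and 593. All superficial values of these genes were below all wing values. The fatty acid binding protein Fabp5 had 156, 267 and 108 scaled CPM in superficial cells and 819, 951 and 617 in wing cells, a log2 fold of -2.26 ± 0.40 (SE, edgeR adjusted p = 1.6e-04). Tcim and Ooep completed the 8, with log2 folds of -2.71 and -2.42.

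Against wing cells the lists differed in how many members passed the test. Antimicrobial genes were higher in 14 of 18 cases, with a median log2 fold of 4.08, and all 14 held on library totals. Tight junction genes were higher in 18 of 19 (median 1.38), but 11 on library totals. Cornified envelope genes were higher in 14 of 19 and lower in 1 (median 1.89; 10 higher on library totals). Desmosome genes were the reverse, with 5 of 15 higher and 9 lower (median -0.38; 3 higher on library totals). Ly6g6c had a log2 fold of 1.16 ± 0.25 (SE, edgeR adjusted p = 8.3e-04) against wing cells, which was 0.12 on library totals and then not past the threshold. The ribosomal protein genes were lower than in wing cells in 75 of 82 cases (median -0.60). This comparison shares the superficial sums with the others, so the comparisons are not independent.

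Against conjunctival cells, the neighbouring surface epithelium with mucosal keratins, 4656 of 13472 genes (34.6%) were higher in superficial cells and 4142 (30.7%) lower, 65.3% in all, and on library totals 1770 (13.1%) and 8762 (65.0%). The median log2 fold of all genes was 0.02. Mucosal keratins had no common direction here: 5 of 13 were higher and 6 lower (median 0.39, with 3 higher on library totals). These counts stand beside 34.6% and 30.7% of all genes tested, so they are not particular to the list. Krt4, a keratin of conjunctiva and other wet surfaces, had 377, 559.5 and 214 scaled CPM in superficial cells and 3869, 4539 and 2527 in conjunctival cells, a log2 fold of -3.33 ± 0.34 (SE, edgeR adjusted p = 1.4e-06). Krt17 had 9.17, 25.6 and 9.89 scaled CPM in superficial cells and 167, 1075 and 242 in conjunctival cells, and was highest in library 2 in both. Krt19 had 606, 805 and 742 scaled CPM in superficial cells and 3530.01, 3515 and 3621 in conjunctival cells. Among single cells at 2000 UMIs, Krt4 was found in 12.5, 19.4 and 9.87% of superficial cells, 92.8, 89.5 and 82.6% of conjunctival cells, 14.3, 15.5 and 11.7% of wing cells and 1.09, 3.59 and 0.778% of basal cells. Krt16 and Krt17, like Krt6a and Krt6b, are close in sequence, so some of their reads may be shared. Krt13, by contrast, did not pass the test between superficial and conjunctival cells, with a log2 fold of 0.39 ± 0.22 (SE, edgeR adjusted p = 0.15).

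Other genes that set the corneal surface below the conjunctiva were Serpinb3a, a serpin, with 6.96, 5.74 and 2.08 scaled CPM in superficial cells and 494, 477 and 359.5 in conjunctival cells, a log2 fold of -6.52 ± 0.43 (SE, edgeR adjusted p = 1.2e-08). Cyp2a5, a cytochrome P450, had 63.1, 58.4 and 35.3 scaled CPM in superficial cells and 1002, 918 and 647 in conjunctival cells. Rhov, Ooep, Gpc3 and Acsm1 had log2 folds of -3.32, -3.21, -3.05 and -2.97. Genes above the conjunctiva included Cd274, with a log2 fold of 6.50 ± 0.11 (SE, edgeR adjusted p = 1.5e-26), and the zinc transporter Slc39a4, which had 337, 275 and 292 scaled CPM in superficial cells and 6.91, 6.28 and 7.62 in conjunctival cells. Ndrg1, a gene of differentiation and stress, had 345, 316 and 494 scaled CPM in superficial cells and 9.18, 6.97 and 10.3 in conjunctival cells. Ccn1, a matrix-associated signalling protein of the immediate early class, had 439.95, 201 and 161 scaled CPM in superficial cells and 8.52, 7.67 and 5.65 in conjunctival cells. Each of these genes was apart in all 3 libraries. Krt12 was also higher than in conjunctival cells, with a log2 fold of 1.98 ± 0.12 (SE, edgeR adjusted p = 1.5e-09).

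The 3 libraries gave similar superficial profiles. Over 3925 genes at a mean log2 level of 5 or more, the median range across libraries was 0.245 on the log2 scale, and 61 genes ranged over more than 1. The widest were Krt16, Lce3b, Spink5, Lce3a, Sprr1a and Hist2h2aa1. Krt16, a keratin of activated epithelium, had 53.2, 465 and 143 scaled CPM in superficial cells and 119, 2092 and 323 in conjunctival cells, highest in library 2 in both. Sprr1a, a small proline-rich envelope protein, had 28.8, 133 and 33.3 scaled CPM in superficial cells and 25.1, 358 and 63.6 in conjunctival cells, again highest in library 2. Spink5, an inhibitor of kallikreins, had 79.6, 199.8 and 26.4 scaled CPM in superficial cells and 122, 134 and 56.7 in wing cells, lowest in library 3 in both. Hist2h2aa1, a histone gene with an identical copy, had 46.6, 26.7 and 123 scaled CPM in superficial cells and 4.56, 3.33 and 12.3 in wing cells, highest in library 3 in both. Lce3a, Lce3b and Lce3f were highest in library 1, from mice of 20 weeks, and lowest in library 3, while Cnfn was highest in library 2, from female mice. With 1 library for each combination of age, sex and pool, these cannot be told apart.

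**Figure D5:**
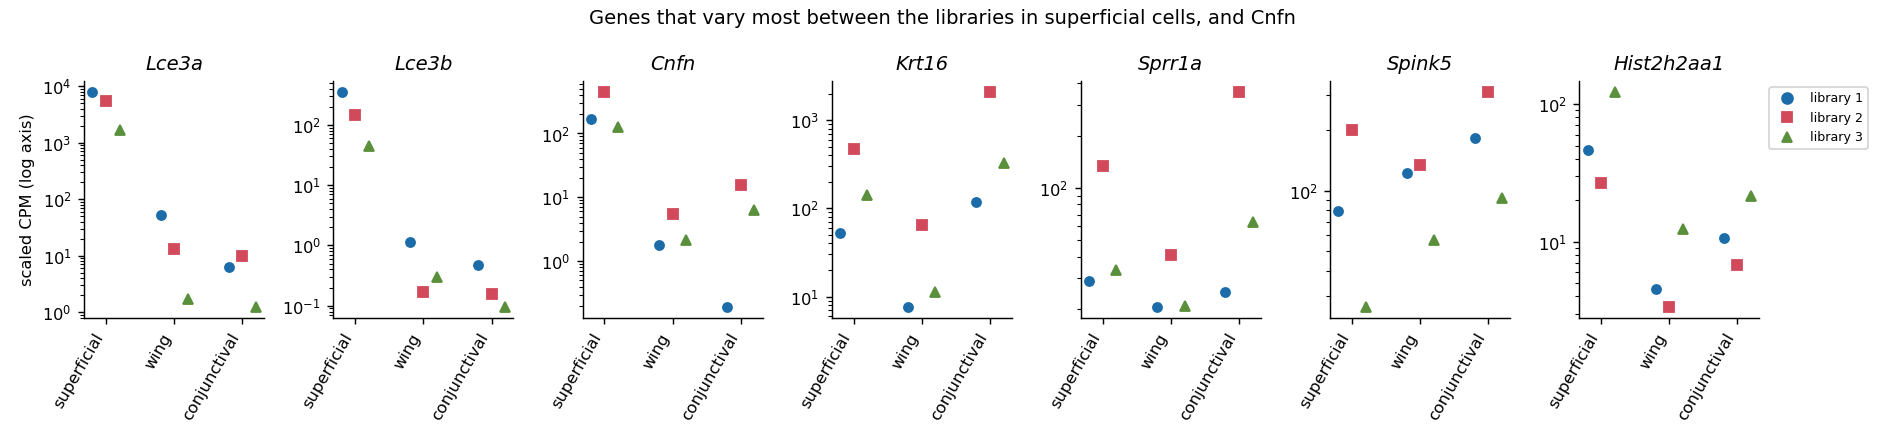
Levels of the genes that varied most over the libraries in superficial cells, and of Cnfn, in superficial, wing and conjunctival cells; y axes are scaled CPM on log axes, each with its own range, and symbols are libraries. Krt16 and Sprr1a are highest in library 2 in all 3 classes, and Hist2h2aa1 in library 3.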

How the data were processed

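The deposited data were UMI counts per gene and cell for 3 libraries, with a cell annotation and map coordinates (a score with no fixed range, not used) from the authors. Per the submitters' processing notes, Cell Ranger 5.0.0, Seurat 4 and the mm10 build were used; the sources used here give neither their roles nor the cell filter. Cells were tied to libraries by the library names in the annotation; the name without a number was taken as library 1, since the others carry 2 and 3. The authors' class labels were used as they stand.

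Counts were summed per library and class into 21 sums, and genes were tested with edgeR 4.0.16 (R 4.3.3) by a quasi-likelihood fit over the 7 epithelial classes with library as a block, since all sums of 1 library come from the same mice. Genes passed edgeR's filter on low counts (13472 tested). Folds are TMM-scaled, and Benjamini-Hochberg adjustment ran over all genes tested, with a threshold of 0.05. The SE of a fold was calculated back from the test, as the absolute log2 fold divided by the square root of the F statistic. The replicates were nothing but pooled libraries. With library as a block, p-values measure how much the differences between classes vary over 3 pools, with the spread estimated over all 21 sums. DESeq2 1.42.0, library totals, no block, no filter, other depths, doublet scores and leaving out each library were alternatives. A doublet caller (Scrublet in scanpy 1.11.5) marked 0 cells at its own threshold and so had not worked; the alternative left out the 8% of cells with the highest scores in each library, 3049 cells of which 255 were superficial. Fits were also run on simulated counts in which few genes changed and most did not shift. Such counts do not test how the scaling acts on superficial sums. Python 3.11.15 with numpy 2.4.6, scipy 1.17.1, pandas 2.3.3 and matplotlib 3.10.9 was used for the rest. Intervals cover counting error only. Coordinates are GENCODE vM21 and RefSeq, both on GRCm38.

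The members and the gene lists were chosen with earlier results of these data known. Mitochondrial, ribosomal, clone-named, Xist and Y-linked genes aside, named genes were, at a mean log2 level of 5 or more, the 12 furthest above and below the other classes and the 8 each way against wing and against conjunctival cells among those past the threshold and moved the same way in all libraries. To these came the 10 of highest ratio to the next class, the 6 of widest range over libraries, the 10 most abundant, and in each list the 2 highest in level and the 2 of largest fold. Fth1 levels, Tjp1, Ivl, Krt5, Krt18, Krt19, Cldn8, Trp63, Sdc1, Krtdap and the lower cytokines were chosen after their values were seen.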

Additional observations from a re-analysis of the deposited data

How the results depend on the processing

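The scaling changed more than any other choice. On library totals, added after the data were seen, 2440 genes were higher in superficial cells and 9893 lower against the mean of the other classes, 1907 and 9932 against wing cells, and 1770 and 8762 against conjunctival cells. Krt12 (-0.28), Ctsl (-0.12), Itga6 (-0.51) and Scd2 (-0.66) then turned round against the mean of the others, and Ly6g6c lost its call against wing cells; the scaling itself sets this shift. In fits of only the classes compared, Krt12 (-0.055) and Scd2 (-0.15) turned round too; the cause was not tested. At 2000 UMIs a cell, 3068 genes were higher and 2512 lower than in conjunctival cells, with 10781 genes left to test. Without the replicate block 5388 genes were higher and 5519 lower than the mean of the others, 4560 and 4657 against wing cells, and 4127 and 3648 against conjunctival cells, and no count moved by over 1.5 times. Without the highest doublet scores superficial cells were 16.3% of library 3. Genes highest in superficial cells in every library numbered 541 at a margin of 2-fold and 4066 on TMM-scaled CPM, a scale added after the data were seen. The 10 most abundant genes took 32.01% of UMIs. At 1000 UMIs a cell, shares with a UMI were 84.8% for Muc4, 19.4% for Krt78, 99.7% for Psca and 55.1% for Ly6g6c, since fewer UMIs detect fewer genes. Leaving out each library in turn moved no count of higher or lower genes by over 1.5 times. Depth limits what can be said of genes under the 3 counts that a count of 0 allows.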
